A study of Mus musculus with 40 samples.

Results

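T cell receptor segment genes were examined across 8 antibody treatments of CT26 tumors. The genes were taken by name: every symbol of the count table that begins with Trav, Trbv, Trdv or Trgv and a number, or that is a Trac, Trbc or Trdc constant gene, was included. This gave 176 genes of the 54087 in the table, namely 130 alpha, 35 beta, 6 delta and 1 gamma variable (V) segments and 4 constant genes (Trac, Trbc1, Trbc2 and Trdc). The other gamma chain genes of the table carry 10 older names that begin with Tcrg and are not among the 176. CT26 is a colon carcinoma line of BALB/c origin, and 1000000 cells were injected under the skin of young adult BALB/c mice, which have an intact immune system. Antibodies were injected into the peritoneum on days 6, 9 and 12, and tumor fragments were collected on day 13 for RNA sequencing, with 5 mice in each group and 40 in all.

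The controls received an isotype antibody (motavizumab, mIgG2a). The 4 single treatments were anti-PD1 FcS (an Fc-silent blocking antibody to the checkpoint receptor PD-1), anti-TGFb (clone 1D11, which neutralizes TGF-β), and anti-GARP:TGFb (clone 58A2, which blocks release of active TGF-β1 from GARP on regulatory T cells) as the WT or the FcD form. FcD stands for an Fc-dead mIgG2a. The other 3 groups combined anti-PD1 FcS with anti-GARP:TGFb WT, anti-GARP:TGFb FcD or anti-TGFb. Each mouse is called here by its library number, from 41 to 80.

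A T cell receptor is a pair of chains, alpha with beta or gamma with delta. In each developing T cell one V segment is joined to a J segment, with a D segment in between for beta and delta chains, and the product is spliced to a constant segment. All progeny of a T cell keep its choice. Reads of the alpha and beta constant genes are therefore taken to follow the amount of T cell RNA in a tumor. The spread of reads over V segments follows which T cells supplied it. Trdc did not follow Trac and Cd3e here and is described further on. RNA of whole tumors does not give the full receptor of any cell, and V segment shares are therefore a coarse view of the repertoire. Here and in all that follows, fewer T cells and less receptor RNA per T cell cannot be told apart.

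The ends of the V segments are where the receptors become different from cell to cell, and the last 90 coding bases of 9 segments on which the results below turn are shown for this reason. Sequences are those of GENCODE (vM21, build GRCm38), 5′ to 3′, and are germline. Capitals run from the codon of the conserved cysteine, with which the germline part of the third complementarity determining region (CDR3) begins, to the end of the segment.
Trbv1: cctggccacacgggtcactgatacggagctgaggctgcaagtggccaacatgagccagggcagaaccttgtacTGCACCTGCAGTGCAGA
Trbv13-1: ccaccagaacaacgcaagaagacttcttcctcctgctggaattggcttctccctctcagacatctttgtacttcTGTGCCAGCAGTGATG
Trbv13-2: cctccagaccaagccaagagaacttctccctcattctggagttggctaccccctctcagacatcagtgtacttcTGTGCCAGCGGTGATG
Trbv16: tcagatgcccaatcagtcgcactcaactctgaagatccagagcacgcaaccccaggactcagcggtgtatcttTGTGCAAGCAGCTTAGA
Trbv19: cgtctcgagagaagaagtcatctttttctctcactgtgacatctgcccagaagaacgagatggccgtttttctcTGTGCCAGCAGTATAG
Trbv31: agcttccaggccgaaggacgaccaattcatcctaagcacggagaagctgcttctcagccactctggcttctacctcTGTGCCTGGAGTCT
Trav3-3: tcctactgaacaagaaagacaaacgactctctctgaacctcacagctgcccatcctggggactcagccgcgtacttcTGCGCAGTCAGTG
Trav7-4: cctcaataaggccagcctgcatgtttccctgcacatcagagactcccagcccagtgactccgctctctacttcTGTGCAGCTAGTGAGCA
Trav8d-1: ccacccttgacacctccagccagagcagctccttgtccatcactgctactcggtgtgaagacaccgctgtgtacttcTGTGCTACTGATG

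The 6 beta segments lie on chromosome 6, from Trbv1 (shown bases chr6:40891796-40891885) over Trbv13-1 (chr6:41116379-41116468), Trbv13-2 (chr6:41121743-41121832) and Trbv16 (chr6:41152141-41152230) to Trbv19 (chr6:41178959-41179048), all on the plus strand. Trbv31 (chr6:41557693-41557782) is read from the minus strand and lies beyond Trbc1 (chr6:41538218-41539881) and Trbc2 (chr6:41546730-41548352). The alpha segments lie on chromosome 14, with Trav8d-1 at chr14:52778906-52778995, Trav7-4 at chr14:53461649-53461738 and Trav3-3 at chr14:53666417-53666506, all on the plus strand and before Trdc (chr14:54142851-54148868) and Trac (chr14:54220521-54224206). All bases shown are exonic and coding. How well reads can be assigned differs between the loci. Of 22 beta segments with reads, 19 had a coding sequence to compare, and none of these shared a stretch of 100 bases, the length of a read, with another. Their identity to the nearest segment over the coding sequence was at most 90.6% (Trbv13-2 and Trbv13-3). Of 58 alpha segments with reads and a coding sequence, 42 were at least 95% identical to another alpha segment, and for 11 over 50% of all stretches of 100 bases occurred in another one. Trav7-4 was 99.4% identical to Trav7d-4 and Trav8d-1 96.1% identical to Trav8-1, so counts of single alpha segments are uncertain. Trbc1 and Trbc2 were 95.6% identical over 518 coding bases, and the split of reads between them is uncertain too.

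Receptor reads were few. Totals per mouse ran from 11931730 to 20680548 counts (median 14030511), of which 0.00095 to 0.0130% fell on the 176 genes. That was 139 to 2172 reads per mouse, with a median of 392. Constant genes held most of them, with 29 to 454 reads of Trac and 54 to 1043 reads of Trbc1 and Trbc2 together. The V segments of the beta locus held 9 to 503 reads per mouse (median 50.0) and those of the alpha locus 3 to 98 (median 16.5). Of the 176 genes, 84 had no read in any mouse and 132 never had more than 3 reads. Among 35 beta segments, 22 had reads, and for the other 13 a count of 0 among 2660 reads allows a share of up to 0.113% of beta V reads. Among 130 alpha segments, 61 had reads, and 0 of 947 reads allows up to 0.317%. In all, 34 of the 176 were annotated as pseudogenes, and 5 of these had reads. These intervals and limits cover counting error only.

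The 40 libraries fall into numbers 41 to 60 and 61 to 80, with 2 or 3 mice of each group in either part. Ddx3y, a Y-linked gene, had at least 91 reads in each library of the first part and 0 in the second, and Xist had at most 6 and at least 784. Means within both parts are given beside the main differences. Mouse 77, of the anti-GARP:TGFb WT + anti-PD1 FcS group, stood apart, with 454 reads of Trac (median of all mice 84.5) and 589 of Cd3e (median 92.5).

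Trac, the constant segment of all alpha chains, varied more between mice of a group than between groups. In isotype mice its level was 6.55, 7.40, 4.17, 6.52 and 3.602 CPM (counts per 1000000 counts of the normalized library). With anti-PD1 FcS it was 2.14, 9.93, 2.43, 2.95 and 3.61 CPM. Mouse 52 stood at 9.93 CPM, and 3 of the other 4 lay below all isotype mice. With anti-TGFb the levels were 3.75, 17.9, 2.89, 6.6 and 8.39 CPM. With anti-GARP:TGFb WT they were 9.35, 10.8, 8.83, 4.33 and 3.76 CPM, and with FcD 5.63, 2.84, 6.09, 6.90 and 1.99 CPM. All of these groups overlapped with isotype. In the anti-GARP:TGFb WT + anti-PD1 FcS group, values were 4.81, 2.21, 9.99, 5.92 and 28.3 CPM, and the highest, that of mouse 77, was the highest of the 40. With anti-GARP:TGFb FcD + anti-PD1 FcS they were 12.8, 3.77, 7.61, 4.92 and 5.91 CPM, and with anti-TGFb + anti-PD1 FcS 8.56, 6.62, 5.90, 2.80 and 9.63 CPM. Group means ran from 4.21 ± 3.25 CPM (SD) with anti-PD1 FcS to 10.2 ± 10.5 CPM with anti-GARP:TGFb WT + anti-PD1 FcS, against 5.65 ± 1.66 CPM in isotype mice.

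**Figure D1:**
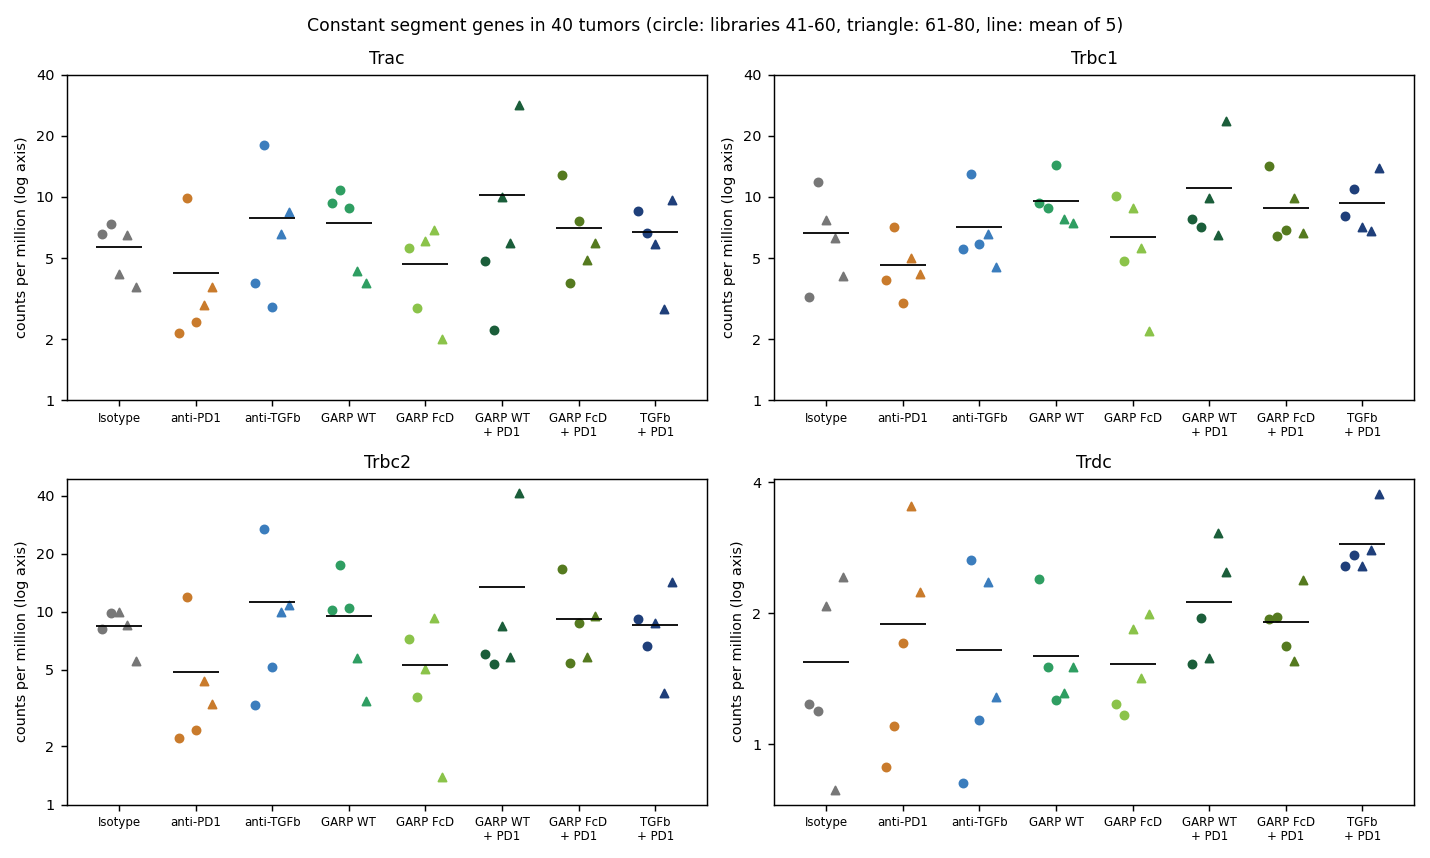
Levels of the 4 constant segment genes in each of the 40 tumors, in CPM on log axes. Each point is a mouse, horizontal lines are means of 5 mice, and circles and triangles are libraries 41 to 60 and 61 to 80. Trac and Trbc2 spread over more than 10-fold within the 40 tumors, and the 5 Trdc values of the anti-TGFb + anti-PD1 FcS group, from 2.57 to 3.77, lie above the 5 isotype values.

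Trbc1 and Trbc2 are alternative constant segments of the beta chain. Trbc1 was at 3.21, 11.9, 7.71, 6.29 and 4.09 CPM in isotype mice and at 3.91, 7.11, 2.996, 5.01 and 4.18 CPM with anti-PD1 FcS. With anti-GARP:TGFb WT + anti-PD1 FcS it was at 7.80, 7.14, 9.87, 6.502 and 23.7 CPM, which overlapped with the anti-PD1 FcS mice. Trbc2 ranged from 1.39 CPM in mouse 75 to 41.2 CPM in mouse 77. Of the reads on both genes, those assigned to Trbc1 made up 28.3% to 68.5% per mouse (median 53.3%). The mean share was 42.4 ± 9.44% (SD) in isotype mice and 53.2 ± 9.71%, 43.6 ± 14.2%, 53.1 ± 13.1% and 55.7 ± 10.3% with anti-PD1 FcS, anti-TGFb, anti-GARP:TGFb WT and FcD. In the 3 combination groups it was 51.3 ± 8.47%, 49.8 ± 8.88% and 53.6 ± 9.11%. Every group overlapped with isotype.

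To ask whether an antibody changed the level of any segment, all genes were fitted together and the values of the 176 were read from that fit. Only 9 of the 176 had enough reads to be tested among 14760 genes, namely the 4 constant genes, Trbv1, Trbv13-1, Trbv13-2, Trbv19 and Trbv31. The filter asks for a minimum count in enough mice, whichever group they belong to. Trbv19 and Trbv31 had at most 4 and 6 reads in isotype mice, and Trbv13-1 at most 3 with anti-PD1 FcS. They passed through mice of other groups, so their differences from these low groups are partly set by the filter. None of the 9 passed an adjusted p of 0.05 in any of 11 comparisons between groups or 3 interactions (edgeR quasi-likelihood test, Benjamini-Hochberg over all genes). Among all genes, 0 (0%) passed in each comparison with isotype, 0 (0%) in the other comparisons and interactions, and 1 (0.00678%) in anti-TGFb + anti-PD1 FcS against anti-PD1 FcS. These shares hung on single mice, since without mouse 53 of the anti-TGFb + anti-PD1 FcS group 2006 genes passed against isotype and 1734 against anti-PD1 FcS, with 0 segment genes among them. The lowest adjusted p of a segment gene was 0.154 (Trdc, anti-TGFb + anti-PD1 FcS against isotype). DESeq2 also called 0 segment genes, but its own filter left 0 to 90 of them with an adjusted p, depending on the comparison. At an unadjusted p under 0.05, 1 of the 9 was higher with anti-PD1 FcS (0.603% of all genes), 1 with anti-TGFb (1.77%), 1 with anti-GARP:TGFb WT (0.583%) and 2 with anti-GARP:TGFb WT + anti-PD1 FcS (13.2%), and 0 were lower (0.352%, 0.549%, 0.386% and 7.47% of all genes). With anti-GARP:TGFb FcD, 0 were higher (0.264% of all genes) and 1 was lower (0.21%). With anti-GARP:TGFb FcD + anti-PD1 FcS there was 0 in either direction (10.7% higher and 5.85% lower among all genes), and with anti-TGFb + anti-PD1 FcS 1 was higher (8.49%) and 1 lower (11.6%).

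Apart from Trdc, which is described further on, the differences behind these counts were those of V segments. Trbv19 had log2 differences to isotype of 3.17 ± 1.29 (SE) with anti-PD1 FcS, 3.09 ± 1.30 with anti-TGFb and 2.71 ± 1.31 with anti-GARP:TGFb WT + anti-PD1 FcS. The lowest adjusted p of the 3 was 0.234. Trbv19 was at 0.185, 0.299, 0, 0.157 and 0 CPM in isotype mice and at 0.148, 4.35, 0.143, 0.664 and 0.721 CPM with anti-PD1 FcS, where mouse 52 held the highest value. The mean was 1.55 against 0.242 CPM in libraries 41 to 60 and 0.692 against 0.0524 in 61 to 80. Without mouse 52 the difference was 1.65, with anti-TGFb it was 1.67 without mouse 48, and with anti-GARP:TGFb WT + anti-PD1 FcS it was 1.32 without mouse 77. Trbv31 had log2 differences to isotype of 3.23 ± 0.97 with anti-GARP:TGFb WT (adjusted p = 1) and 2.85 ± 0.98 with anti-GARP:TGFb WT + anti-PD1 FcS (adjusted p = 0.159). It was at 0, 0.448, 0.139, 0.0786 and 0.208 CPM in isotype mice and at 0.449, 6.74, 0.315, 0.232 and 0.334 CPM with anti-GARP:TGFb WT. Mouse 49 held the highest value, and without it the first difference was 0.92. Its mean was 2.502 against 0.224 CPM in libraries 41 to 60, which hold mouse 49, and 0.283 against 0.142 in 61 to 80. The second was 1.69 without mouse 77. Trbv13-2 differed from isotype by -2.13 ± 0.86 with anti-GARP:TGFb FcD and by -2.10 ± 0.86 with anti-TGFb + anti-PD1 FcS, and 1 isotype mouse, 46, held 2.04 CPM while the other 4 lay between 0.149 and 0.471. Without mouse 46 these values were -0.93 and -0.89. In libraries 61 to 80 the mean with anti-GARP:TGFb FcD was 0.182 against 0.319 CPM in isotype mice, and in 41 to 60, which hold mouse 46, it was 0.0835 against 1.09.

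In the other groups the named segments differed less. Trbv19 stood 1.74 ± 1.37 above isotype with anti-GARP:TGFb FcD, 2.62 ± 1.32 with anti-GARP:TGFb FcD + anti-PD1 FcS and 1.97 ± 1.36 with anti-TGFb + anti-PD1 FcS on the log2 scale. Trbc1 and Trbc2 differed from isotype by -0.51 ± 0.39 and -0.78 ± 0.58 with anti-PD1 FcS, and Trac by -0.42 ± 0.54. In this group mouse 52 held 9.93 CPM of Trac and 11.9 CPM of Trbc2, against at most 3.61 and 4.35 CPM in the others. It thus raised both group means. With anti-GARP:TGFb WT + anti-PD1 FcS, Trac, Trbc1 and Trbc2 differed by 0.86 ± 0.53, 0.73 ± 0.38 and 0.68 ± 0.56. Without mouse 77 these were 0.019, 0.24 and -0.39, so that Trbc2 changed direction. The median log2 difference of the 9 was 0.73 in that comparison and -0.68 with anti-PD1 FcS, beside medians of 0.01 over all genes tested in both.

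The combinations were compared with anti-PD1 FcS alone, which asks what the second antibody added. Against anti-PD1 FcS, 5 of the 9 segment genes were higher with anti-GARP:TGFb WT + anti-PD1 FcS at an unadjusted p under 0.05, where 11.2% of all genes were, and 0 were lower (5.99%). These were Trac (log2 difference 1.28 ± 0.53), Trbc1 (1.24 ± 0.38), Trbc2 (1.46 ± 0.58), Trbv13-1 (2.83 ± 1.05) and Trbv31 (3.58 ± 1.06), with adjusted p from 0.231 to 0.247. Trbv13-1 was at 0.0731 to 1.31 CPM in the combination and at 0 to 0.222 CPM with anti-PD1 FcS. Trbv31 was at 4.11 CPM in mouse 77 and at 0.103 to 1.24 CPM in the others of its group. Both groups held a mouse far above the rest, and each moved the log2 differences. Without mouse 77 the differences of Trac, Trbc1 and Trbc2 were 0.44, 0.75 and 0.40. Without mouse 52, the highest of the anti-PD1 FcS group, they were 1.88, 1.45 and 2.12, and Trbc1, Trbc2 and Trbv31 then had adjusted p of 0.0445, 0.0479 and 0.0416. In that fit 538 genes passed an adjusted p of 0.05 in all, 3 of 5 macrophage genes among them. In libraries 41 to 60, which hold mouse 52, the mean of Trac was 3.51 against 4.83 CPM, that of Trbc1 7.47 against 4.67 and that of Trbc2 5.70 against 5.53. In 61 to 80, which hold mouse 77, they were 14.7 against 3.28, 13.4 against 4.60 and 18.5 against 3.83. The adjusted p of Trbc1 in this comparison ran from 0.0445 to 0.818 over the mice left out in turn. With anti-GARP:TGFb FcD + anti-PD1 FcS, 2 of the 9 were higher at an unadjusted p under 0.05 (6.46% of all genes), Trbc1 by 0.93 ± 0.38 and Trbv13-1 by 2.57 ± 1.07, and 0 were lower (4.27%). Without mouse 44 the difference of Trbv13-1 was 1.02. Of marker genes of other cells, 1 of 5 macrophage genes (median log2 difference 0.63), 1 of 3 neutrophil genes (median 1.03) and 2 of 4 genes of an epithelium list (Epcam, Krt8, Krt18 and Krt19, median 2.99) were higher at the same limit, and 0 NK cell and 0 B cell genes were. Epcam had 0 to 580 and Krt8 0 to 2546 reads per tumor, so this list does not measure how many CT26 cells a tumor held. The summed level of the epithelium list was 478 CPM in mouse 71 and 5.85 to 52.1 CPM in the other 4, and 5.31 to 50.9 CPM with anti-PD1 FcS. Without mouse 71 0 genes of these 3 lists were higher, with a median of -0.12 for epithelium, and their part in the segment gene differences was not tested. With anti-TGFb + anti-PD1 FcS 1 of the 9 was higher at this limit (7% of all genes), Trbc1 by 1.01 ± 0.38, and 0 were lower (10.1%). Of marker genes, 2 of 4 NK cell and 1 of 5 macrophage genes were higher as well, and 0 B cell, neutrophil and epithelium genes were. Their part was not tested. These 3 comparisons share the anti-PD1 FcS mice. Between the FcD and WT combinations 0 of the 9 were higher (0.813% of all genes) and 1 was lower (0.488%), Trbv31 by -2.74 ± 0.97 with an adjusted p of 1, and Trac differed by -0.55 ± 0.52. Without mouse 77 the values were -1.58 for Trbv31 and 0.29 for Trac, which changed direction.

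The interaction asks whether anti-PD1 FcS added more with the second antibody than without it. No segment gene passed, and the lowest adjusted p was 0.488 for anti-GARP:TGFb WT, 0.787 for FcD and 0.959 for anti-TGFb. The values with an unadjusted p under 0.05 were Trbv13-2 with FcD (2.57 ± 1.16, where 2.45% of all genes were higher and 2.05% lower) and Trbv19 with anti-TGFb (-4.29 ± 1.70, where 0.752% were higher and 1.55% lower). Single mice moved both values. The first was 1.36 without mouse 46 and 3.81 without mouse 52, and the second was -2.78 without mouse 52. With anti-GARP:TGFb WT there were 0 in either direction, beside 4.3% of all genes higher and 4.44% lower.

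Genes whose products work with the receptor were read from the same fit. The list of the receptor complex (Cd3d, Cd3e, Cd3g and Cd247, which pass on the signal) had 0 of 4 genes past an adjusted p of 0.05 in all comparisons with all mice, as had the coreceptor list (Cd4, Cd8a and Cd8b1) with 0 of 3. Between anti-GARP:TGFb WT + anti-PD1 FcS and anti-PD1 FcS the log2 difference of Cd3e was 1.64 ± 0.58 and that of Cd8a 1.76 ± 0.67, and 4 of 4 and 2 of 3 genes of the lists were higher at an unadjusted p under 0.05, beside 11.2% of all genes. Without mouse 77 the differences were 0.56 and 0.76, and 0 genes of either list were higher at that limit (2.15% of all genes). Without mouse 52 they were 2.30 and 2.92, and 4 of 4 and 2 of 3 genes of the lists then passed an adjusted p of 0.05. In that fit 538 genes passed in all, and 15.2% of all genes were higher at an unadjusted p under 0.05. Among those that passed were 3 of 5 macrophage genes and 0 NK cell, B cell, neutrophil or epithelium genes. Markers of other cells were higher too, with 5 of 5 macrophage genes (median log2 difference 0.82) and 3 of 4 NK cell genes at an unadjusted p under 0.05. Of the neutrophil list 1 of 3 was higher (median -0.06) and of the B cell list 0 of 5 (median -0.54). Without mouse 77 it was 0 for each of these lists. The 4 epithelium genes did not pass this limit here (median 2.05). Against isotype, 4 of 4 were higher with anti-GARP:TGFb FcD + anti-PD1 FcS (median 3.30, beside 10.7% of all genes) and 0 in the other treated groups, and without mouse 71 it was 0 (median 0.43). Of the list of immature T cells (Rag1, Rag2, Dntt and Ptcra) none had enough reads to be tested, and its summed level was at most 1.01 CPM in any mouse. Summed levels of the macrophage list ran from 755 to 2091 CPM with anti-PD1 FcS and from 1203 to 5609 CPM with anti-GARP:TGFb WT + anti-PD1 FcS, and their part in the segment gene differences was not tested. Only 1 of 5 mice lay above all anti-PD1 FcS mice for Cd3e. Summed over the complex list, levels ran from 10.8 to 34.1 CPM in isotype mice, from 5.71 to 40.2 CPM with anti-PD1 FcS and from 13.6 to 148 CPM with anti-GARP:TGFb WT + anti-PD1 FcS.

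Across the 40 mice, Trac followed T cell genes. Pearson's r of log2 CPM was 0.945 with Cd3e, 0.906 with Cd8a and 0.721 with Cd4, and Spearman's rho was 0.937, 0.912 and 0.678. For each the permutation p was 1e-05, the smallest that the resamples can give, with an adjusted p of 2.67e-05 over 8 relations. Without the 2 mice farthest from the median of Trac, r was 0.926, 0.878 and 0.630. In libraries 41 to 60 it was 0.939, 0.892 and 0.681, and in 61 to 80 it was 0.954, 0.925 and 0.772. The points share library preparation and sequencing.

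**Figure D2:**
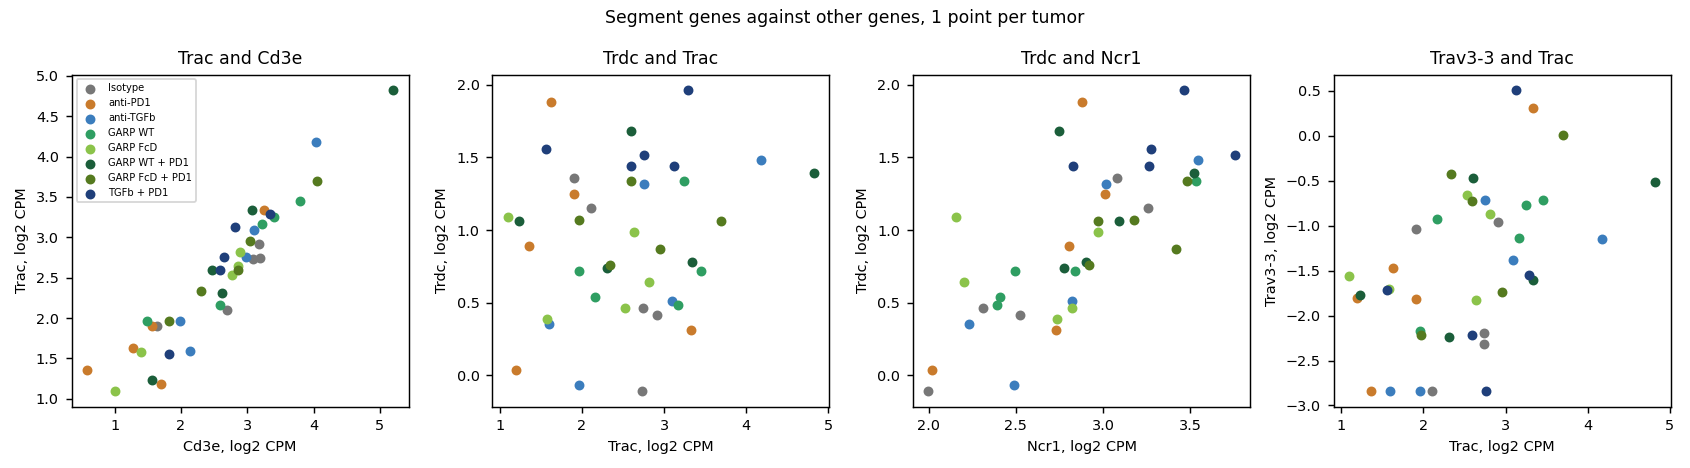
Log2 CPM of a segment gene against another gene, 1 point per mouse, colored by group. Trac against Cd3e gives r = 0.945, Trdc against Trac gives r = 0.154, Trdc against Ncr1 gives r = 0.725, and Trav3-3 against Trac gives r = 0.506.

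Trdc, the constant segment of the delta chain, behaved otherwise. It had 10 to 56 reads per mouse, and its r was 0.154 with Trac (permutation p = 0.342, adjusted p = 0.456) and 0.0455 with Cd3e (permutation p = 0.781, adjusted p = 0.892). Spearman's rho was 0.100 and -0.033. Within libraries 41 to 60 and 61 to 80, r with Trac was 0.414 and -0.055. Tcrg-C2, a gamma chain constant gene with 0 to 42 reads (median 6.5), had an r of -0.0048 with Trdc (permutation p = 0.976, rho -0.049). Trdc was also set beside Ncr1, a receptor gene of NK cells, after the values had been seen. Here r was 0.725 and rho 0.750 (permutation p = 2e-05 and 1e-05, adjusted p = 4e-05 and 2e-05), and r was 0.675 without the 2 mice farthest in Trdc, 0.886 in libraries 41 to 60 and 0.666 in 61 to 80.

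Trdc values did not overlap between the anti-TGFb + anti-PD1 FcS and isotype groups. Trdc was at 1.24, 1.20, 2.08, 0.786 and 2.42 CPM in isotype mice and at 2.58, 2.73, 2.57, 2.80 and 3.77 CPM with anti-TGFb + anti-PD1 FcS. All 5 treated mice lay above all 5 isotype mice, as they did for 1.73% of all genes in this comparison. The log2 difference was 0.90 ± 0.32 with an adjusted p of 0.154, which does not pass, and the difference ran from 0.74 to 1.12 as each mouse was left out, with adjusted p from 0.0577 to 0.376. In libraries 41 to 60 the mean was 2.65 CPM against 1.22 in isotype mice, and in 61 to 80 it was 3.05 against 1.76. The other 6 treated groups had means between 1.53 ± 0.37 and 2.12 ± 0.65 CPM (SD), all overlapping with isotype. Beside it, Ncr1 differed by 0.65 ± 0.26 and Klrb1c by 1.06 ± 0.33 (log2, adjusted p of 0.178 and 0.137), and 2 of the 4 NK cell genes tested were higher at an unadjusted p under 0.05, beside 8.49% of all genes. Of the list of gamma delta T cell genes 2 could be tested and 1 was higher, Blk, by 2.96 ± 1.34 (adjusted p = 0.216), a gene that B cells also express, while Sox13 differed by 0.09 ± 0.17. All 5 B cell genes (median log2 difference 3.27), 2 of 3 neutrophil genes and 1 of 5 macrophage genes were higher at that limit as well. Summed levels of the B cell list were 4.62, 4.48, 5.22, 6.09 and 91.3 CPM with anti-TGFb + anti-PD1 FcS and 2.78 to 5.16 CPM in isotype mice, so that mouse 68 alone stood far above. Without mouse 68 the median was 0.66, and 0 of 5 B cell and 0 of 5 macrophage genes were higher at that limit. Without mouse 62 it was 0 of 3 neutrophil genes. The summed level of the NK cell list was 7.78 to 19.0 CPM in isotype mice and 15.5 to 23.5 CPM with anti-TGFb + anti-PD1 FcS. Il17a of the gamma delta list was at 0 in all mice, and the summed level of that list was 4.71 to 7.73 CPM in isotype mice and 5.68 to 10.2 CPM in this group. The part of any of these lists in the Trdc difference was not tested.

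V segments of the delta and gamma loci had hardly any reads. Trdv4 was seen in 39 of 40 mice with at most 11 reads (median 3.0), and it held 154 of 218 delta V reads of the 40 mice (70.6%, exact 95% interval 64.1 to 76.6%). Trdv2-2 had reads in 21 mice, and Trdv1 in 3 with 13 of its 19 reads in mouse 77. Trdv5 had 6 reads in all. The only gamma V segment of the set, Trgv2, had 0 to 6 reads. With 0 to 29 delta V reads per mouse, usage of these loci is not given per tumor.

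Beta V segments had the most V reads, but mice 66, 54 and 75 had only 9, 10 and 14 of them. On average over the 40 mice, Trbv19 held 14.2% of beta V reads, Trbv31 11.7%, Trbv13-2 11.2%, Trbv1 11.04% and Trbv13-1 9.91%, followed by Trbv29 (9.39%) and Trbv14 (6.86%). The 5 and 10 most read segments held 58.3% and 86.9% of the reads of all mice. In the isotype mice the order was another, with Trbv14 at 22.6 ± 13.7% (SD), Trbv13-2 at 19.7 ± 24.1%, Trbv1 at 13.2 ± 16.3%, Trbv29 at 10.7 ± 13.6% and Trbv13-1 at 7.94 ± 7.41%, then Trbv31 at 5.87 ± 5.45%, Trbv3 at 5.16 ± 11.5% and Trbv12-2 at 3.13 ± 5.73%. The SDs were larger than the differences between neighbours in this order. The exons of Trbv19 are the longest of these segments, and per kb of exon Trbv13-2 came first over the 40 mice with 12.97% of the summed level, followed by Trbv31 (11.3%), Trbv13-1 (10.9%), Trbv1 (10.7%) and Trbv19 (10.6%). In isotype mice Trbv14 and Trbv13-2 stayed first and second per kb. The place of Trbv13-2 rested on mouse 46 (62.3% of reads), with 3.23 to 13.0% in the other isotype mice. That of Trbv3 rested on mouse 51 (25.8%), with 0% in the others.

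**Figure D3:**
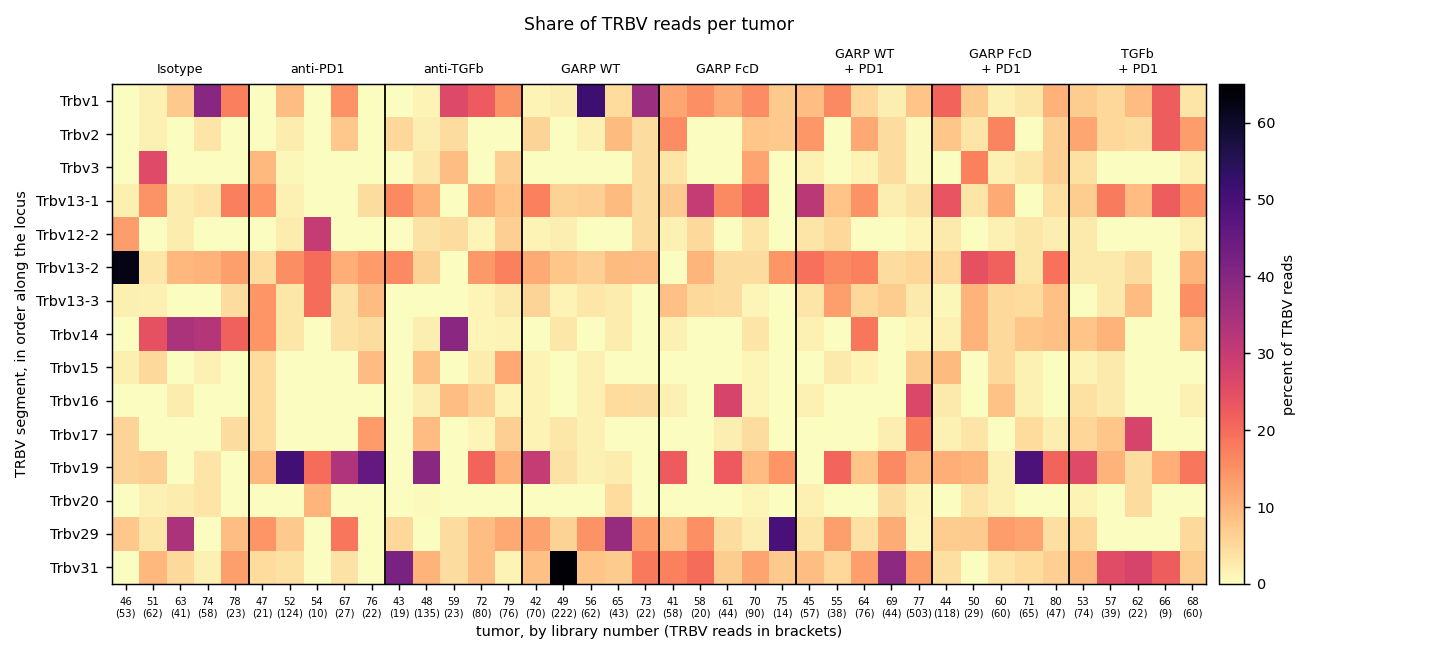
Percent of beta V reads on each segment in each tumor, for the 15 segments with at least 20 reads, in order along the locus. Columns are mice with their reads in brackets, and vertical lines separate the 8 groups. Dark cells stand alone in single tumors, such as Trbv31 in mouse 49 (64.4%) and Trbv13-2 in mouse 46 (62.3%).

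In most tumors 1 segment held the lead, and different tumors often shared a leader. The leading segment held over 20% of beta V reads in 36 of 40 mice, over 33% in 16 and over 50% in 4, counting only values above each limit. In 36 mice the lead was not shared, and 10 different segments led, Trbv19 in 11 mice and Trbv1, Trbv13-1, Trbv13-2 and Trbv31 in 4 each. Per kb of exon, Trbv19 and Trbv13-2 led in 7 mice each. The number of leaders was counted over mice with an unshared lead, from 3 to 5 per group, and its difference between groups was not tested. The 5 anti-TGFb mice had 5 leaders (Trbv1, Trbv13-2, Trbv14, Trbv19 and Trbv31), as had the 5 mice of anti-GARP:TGFb WT + anti-PD1 FcS (Trbv13-1, Trbv14, Trbv16, Trbv19 and Trbv31), and 4 isotype mice had 4. Anti-GARP:TGFb WT and FcD had 4 each in 5 mice and anti-GARP:TGFb FcD + anti-PD1 FcS had 3 in 5. Anti-PD1 FcS had 2 in 4 mice (Trbv12-2, and Trbv19 in mice 52, 67 and 76), and anti-TGFb + anti-PD1 FcS had 2 in 3 (Trbv19 and Trbv31).

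Single tumors departed far from the usual shares. Trbv31 took 143 of 222 beta V reads in mouse 49 (anti-GARP:TGFb WT), which is 64.4% (exact 95% interval 57.7 to 70.7%), against a median of 7.60% over all mice. Trbv13-2 took 33 of 53 in isotype mouse 46 (62.3%, 47.9 to 75.2%, median 9.88%). Trbv1 took 32 of 62 in mouse 56 of the anti-GARP:TGFb WT group (51.6%, 38.6 to 64.5%, median 7.64%). These pairs were picked for lying far above the median, and the intervals cover counting of reads alone. Trbv19 took 63 of 124 in mouse 52 of the anti-PD1 FcS group (50.8%, 41.7 to 59.9%) and 32 of 65 in mouse 71 of the anti-GARP:TGFb FcD + anti-PD1 FcS group (49.2%, 36.6 to 61.9%), beside a median of 10.3%. Trbv29 took 7 of 14 in mouse 75 (50.0%, 23.0 to 77.0%), where the interval is wide.

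Mouse 77, with 503 beta V reads the most deeply covered tumor, was led by Trbv16 with 134 reads (26.6%), followed by Trbv17 with 89 reads and Trbv31 with 66. Trbv16 is one of 5 segments (with Trbv12-1, Trbv12-2, Trbv15 and Trbv26) whose T cells are known to be removed in the thymus of BALB/c mice by superantigens of mouse mammary tumor viruses. The 5 together held 34.6% of beta V reads in mouse 77 and 0 to 34.6% over all mice (median 5.13%). Without mouse 77 they held 163 of 2157 reads, or 7.56% (exact 95% interval 6.48 to 8.75%). They were detected in 33 of 40 mice, with 181 reads of Trbv16 (134 in mouse 77), 86 of Trbv15, 58 of Trbv12-2, 11 of Trbv12-1 and 1 of Trbv26. Mouse 61, of the anti-GARP:TGFb FcD group, also was led by Trbv16, with 27.3% of 44 reads.

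Trbv19 and Trbv14 stood differently in isotype and treated mice. Both were singled out after their values had been seen, and no test was made of their shares. Trbv19 held 5.66, 6.45, 0, 3.45 and 0% of beta V reads in isotype mice and 9.52, 50.8, 20, 33.3 and 45.5% with anti-PD1 FcS, so that all 5 lay above isotype, as for 1 of 22 segments (4.55%) in this comparison. Of 154 pairs of a segment and a treated group, 2 (1.3%) did not overlap with isotype, and the other was Trbv2 with anti-TGFb + anti-PD1 FcS. In the other treated groups Trbv19 reached 39.3% (anti-TGFb), 30.0% and 22.7% (anti-GARP:TGFb WT and FcD) and 21.1%, 49.2% and 25.7% in the combinations, with medians between 2.33 and 14.3%. In all, 25 of 35 treated mice lay above the highest isotype value, and 12 of 35 held over 20%. Trbv14 held 0, 24.2, 34.2, 32.8 and 21.7% in isotype mice, and 1 of 35 treated mice, 59 (39.1%), held over 20%. Its reads were 53 of 237 in isotype mice (22.4%) and 88 in the treated mice (3.63%). Its reads were too few for it to pass the filter of the fit, and without that filter neither segment was called.

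Evenness of usage was expressed as the effective number of beta V segments, that is, how many equally used segments would give the same chance that 2 reads differ. It ran from 2.33 in mouse 49 to 15.0 in mouse 47, with a median of 6.69. It was 2.46, 6.59, 4.27, 3.73 and 8.72 in isotype mice and 9.51, 8.62, 7, 9 and 9.32 with anti-TGFb + anti-PD1 FcS. Of the latter, 3 lay above all isotype mice, and the difference of the means was 3.53 ± 1.20 (SE). This difference was 4.54 in libraries 41 to 60 and 2.86 in 61 to 80. One of the 3 above all isotype mice, mouse 66, had only 9 beta V reads on 5 segments, yet an effective number of 9. With few reads the index can exceed the number of segments seen, as in mouse 47 (15.0 from 11 segments) and isotype mouse 78 (8.72 from 8). All mice were also thinned to 9 reads and the Shannon index was used, which has a smaller scale. The difference was then 1.31 ± 0.47 (SE). With anti-GARP:TGFb FcD + anti-PD1 FcS the values were 7.59, 9.67, 9.22, 3.80 and 9.48, a difference of 2.80 ± 1.57. With anti-GARP:TGFb WT + anti-PD1 FcS they were 6.16, 8.47, 8.51, 5.44 and 6.95 (1.95 ± 1.27), and with anti-GARP:TGFb WT 6.58, 2.33, 3.41, 6.14 and 6.08 (-0.25 ± 1.41). All these groups overlapped with isotype. The differences were 2.15 ± 2.34 with anti-PD1 FcS, 1.32 ± 1.53 with anti-TGFb and 1.69 ± 1.41 with anti-GARP:TGFb FcD. The first was 0.23 without mouse 47 and the second 0.39 without mouse 79. The third was 1.02 without isotype mouse 46 and 2.58 without isotype mouse 78, the difference with anti-GARP:TGFb WT + anti-PD1 FcS was 1.28 without mouse 46, and the difference with anti-GARP:TGFb WT ran from -0.92 to 0.65 as each mouse was left out. Against anti-PD1 FcS, the 3 combinations differed by -0.20 ± 2.14 (WT), 0.65 ± 2.33 (FcD) and 1.38 ± 2.10 (anti-TGFb). Without mouse 47, whose 15.0 came from 21 reads, these were 1.73 ± 1.11, 2.57 ± 1.44 and 3.31 ± 1.03, so that the WT value changed direction. As a score over chosen genes, evenness was described and not tested.

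**Figure D4:**
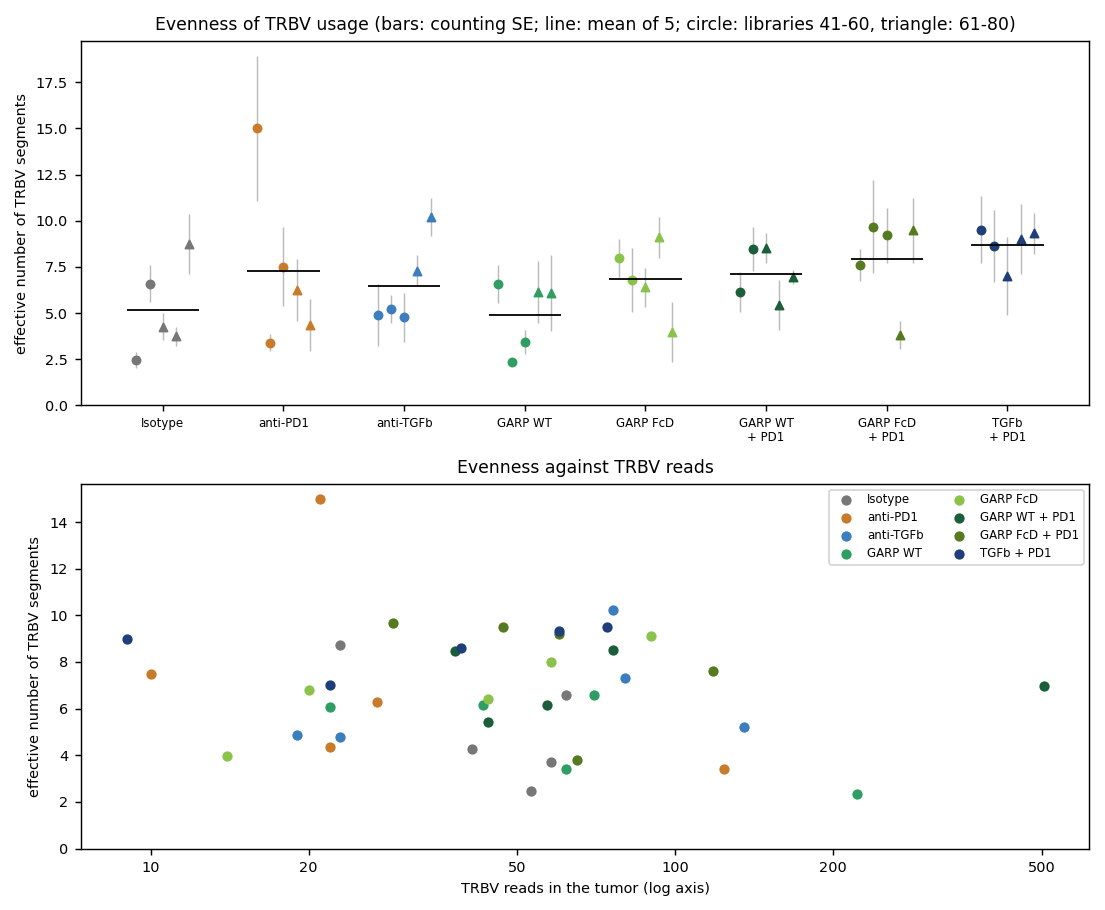
Effective number of beta V segments per mouse by group (upper plot, bars are counting standard errors, lines are means of 5 mice) and against the number of beta V reads (lower plot, log axis). Values run from 2.33 to 15.0, and counting errors are wide in tumors with few reads.

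The spread of usage between mice of a group was set beside counting of reads, as a description. If 5 mice drew their reads from the same usage, chi-square per degree of freedom would be near 1, though many expected counts are small here. For the beta locus it was 4.66 in isotype mice, 2.65 with anti-PD1 FcS, 4.18 with anti-TGFb, 5.93 with anti-GARP:TGFb WT and 2.56 with FcD. It was 6.72, 3.17 and 1.49 in the combinations with anti-GARP:TGFb WT, FcD and anti-TGFb. The measure grows with depth, and the highest and the lowest value belong to the groups with 718 reads and 204 reads, the latter shared with anti-PD1 FcS. For the alpha locus it ran from 1.25 with anti-PD1 FcS to 2.48 with anti-GARP:TGFb WT.

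Alpha V segments had fewer reads and many near-identical copies. Trav3-3 was the most used, with 20.7% of alpha V reads on average, reads in 35 of 40 mice and an unshared lead in 15 mice. In isotype mice the highest means were Trav3-3 at 13.7 ± 15.5% (SD), Trav3-1 at 10.7 ± 23.9%, Trav16n at 10.4 ± 14.7%, Trav5-1 at 8.495 ± 15.1% and Trav21-dv12 at 8.15 ± 18.2%. With near-identical copies added up, Trav16 had the highest mean in isotype mice at 19.9 ± 27.9% (SD). It held 9 of 14 alpha V reads in isotype mouse 46 (64.3%, exact 95% interval 35.1 to 87.2%), and without this mouse its mean was 8.78%, below the 15.3% of Trav3-3. Trav3-3 was spread otherwise than the segments that led single tumors, with a median of 3.0 and a maximum of 17 reads, and 9 in mouse 77 with its 454 reads of Trac. Its r with Trac was 0.506 and rho 0.504 (permutation p = 0.00094 and 0.00116, adjusted p = 0.0015 and 0.00186), a relation looked at after the values had been seen. It was 0.637 in libraries 41 to 60, 0.314 in 61 to 80 and 0.482 without the 2 mice farthest in Trav3-3.

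Single alpha segments led single tumors as well. Trav8d-1 took 48 of 93 alpha V reads in mouse 49 (51.6%, exact 95% interval 41.0 to 62.1%), which is the same mouse in which Trbv31 took 143 of 222 beta V reads, and it held 0.82% of the reads of the other mice. Trav7-4 took 19 of 38 in mouse 48 (50.0%, 33.4 to 66.6%) and Trav21-dv12 took 11 of 27 in isotype mouse 51 (40.7%, 22.4 to 61.2%). These 3 had a median of 0% over all mice. Trav3-1 took 8 of 15 in isotype mouse 63 (53.3%, 26.6 to 78.7%), Trav7-4 took 4 of 9 in mouse 43 and Trav3-3 took 3 of 5 in mouse 67, numbers that allow no firm value. With the copies of each subfamily added up, Trav7-4 had 77 reads in place of 41, Trav16 had 66 and Trav8-1 had 56. Summed by family, Trav3, Trav7 and Trav6 held 21.2%, 15.5% and 11.6% of all alpha V reads.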

How the data were processed

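RNA of 40 CT26 tumor fragments was sequenced as stranded mRNA libraries. The deposited table holds raw counts per gene, which the authors made with STAR 2.5.3a, SAMtools 1.6 and HTSeq 0.9.1 on GRCm38; the handling of reads that match several genes is not given in the sources used here. Groups were taken from the treatment labels, 5 mice each, and nothing links mice of different groups. Totals were 11931730 to 20680548 counts per mouse.

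All 40 mice were fitted in 1 model with edgeR 4.0.16 (TMM, filterByExpr with a minimum count of 10, robust quasi-likelihood test, 2-sided, Benjamini-Hochberg over 14760 genes) in R 4.3.3, with SEs from the F statistic. DESeq2 1.42.0 was an alternative. Scripts were tested on simulated data. For evenness the simulation checked the index averaged over many draws, and it did not go down to the lowest read numbers seen here. It therefore does not show how far values of single tumors with few reads are off. The segment genes and gene lists were chosen with earlier results of these data known. V segment shares are reads of a segment over all V reads of its locus, with exact (Clopper-Pearson) intervals at a level of 0.95. Correlations used log2 CPM with a prior count of 2 and 100000 resamples, 2-sided, adjusted over 8 relations. P-values of the fit set differences against the spread between mice. Those of the correlations were computed over all 40 mice together, so that differences between groups enter them.

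Named were all constant genes, the V segments most used in isotype mice, the superantigen list, the 2 higher and 2 lower members of smallest p per comparison (of these, values with an unadjusted p under 0.05 and the constant genes are printed first), and the 6 pairs of tumor and segment per locus farthest above the median. Alternatives were DESeq2 size factors, no filter, library part as covariate, the compared groups alone, each mouse left out, another evenness index, reads per kb and summed copies. Of the gene lists, that of receptor signaling genes is not reported here.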

Additional observations from a re-analysis of the deposited data

Results flagged for a closer look

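In 26 of 104 groups of 5 mice, 1 mouse stood far from the other 4, where chance gives about 1 in 20 for independent, normally distributed values. These values are skewed, and the same mice (77, 52 and 48) recur over genes that move together. Mouse 77 (anti-GARP:TGFb WT + anti-PD1 FcS) was the highest of its group for Trbc1 (23.72 CPM, others up to 9.866), Trbc2 (41.21), Trbv1 (2.49), Trbv19 (3.05) and Trbv31 (4.109), and its Trbc1 share of beta constant reads was the lowest at 36.53%. Mouse 52 (anti-PD1 FcS) was the highest of its group for Trac (9.933 CPM, others up to 3.607), Trbc2 (11.93), Trbv13-2 (1.311), Trbv19 (4.346) and Trbv31 (0.3449).

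Single segments stood out in other tumors. These were Trbv31 in mouse 49 of anti-GARP:TGFb WT (6.742 CPM, others up to 0.449), Trbv13-2 in isotype mouse 46 (2.04), Trbv1 in isotype mouse 74 (1.807), and Trbv19 in mouse 42 of anti-GARP:TGFb WT (1.572), which was also the highest of its group for Trdc (2.395). Mouse 48 of anti-TGFb was the highest for Trbc1 (12.94) and Trbv19 (4.132), and mouse 56 of anti-GARP:TGFb WT for Trbc1 (14.31). Mouse 44 of anti-GARP:TGFb FcD + anti-PD1 FcS was the highest for Trbv1 (1.802) and Trbv13-1 (2.018). In the anti-TGFb + anti-PD1 FcS group, mouse 53 was the highest for Trbv1 (0.3789 CPM) and for beta V reads per 100 constant reads (32.6, others 6.977 to 14.39), and mouse 68 for Trdc (3.771 CPM, others up to 2.80).

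The leading beta segment held 49.23% in mouse 71 of anti-GARP:TGFb FcD + anti-PD1 FcS, against 21.28 to 24.14% in the other 4. The Trbc1 share was 37.73% in mouse 70 of anti-GARP:TGFb FcD, against 57.43 to 63.78%.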

How the results depend on the processing

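With another normalization, no filter, DESeq2, library part as covariate or the compared groups alone, 0 segment genes were called in every comparison for which these fits gave an adjusted p, and none of 563 log2 differences of single segment genes recomputed in this way passed the threshold, counting those to which DESeq2 gave no adjusted p. With mice left out in turn, 1443 such differences stayed within 1 SE of the value from all mice, 84 moved by more and 3 passed the threshold. As each mouse was left out, the count in anti-GARP:TGFb WT + anti-PD1 FcS against anti-PD1 FcS ran from 0 to 3. The 3 (Trbc1, Trbc2 and Trbv31) were reached only without anti-PD1 FcS mouse 52, where 538 genes passed in all. Counts over all genes were less stable. For anti-TGFb + anti-PD1 FcS against isotype they were 0 with all mice, 2006 without mouse 53, 730 without isotype mouse 63, 139 with DESeq2 and 8 with the compared groups alone. Against anti-PD1 FcS they were 1, 1734 without mouse 53 and 78 with DESeq2. For anti-GARP:TGFb FcD + anti-PD1 FcS against isotype they were 177 with the compared groups alone, 17 with library part as covariate and 14 with DESeq2. None of these held a segment gene. The evenness difference between anti-TGFb + anti-PD1 FcS and isotype was 1.314 ± 0.4721 (SE) with the Shannon index at 9 reads, in place of 3.53 ± 1.20. These indices have different scales, so the sizes cannot be compared directly. Another 20 evenness values moved by less than the spread between mice. Evenness over beta segments with a mean of at least 10 reads was not run, since 1 segment remained, and a mean of at least 2 reads was used after seeing the data, as were leaders per kb of exon, evenness against anti-PD1 FcS without mouse 47 and the gene lists and summed alpha copies without single mice. Depth limits V usage, as the beta locus had 9 to 503 reads and the alpha locus 3 to 98 per mouse. No paired analysis was possible because the labels give no replicate numbers that mice of different groups share.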
